A study of Homo sapiens with 24 samples.

Results

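Collagens, laminins and integrins are the chains of the extracellular matrix and the receptor subunits that hold cells to it. They were taken as every gene whose symbol had the form of a collagen alpha chain, a laminin chain or an integrin subunit, leaving out pseudogenes and ITGB1BP genes, with a mean normalized count of 10 or more in at least 1 of the 4 tables. The rule found 67 genes among the 39772 listed, of which 19847 reached that mean. They were 35 collagen, 10 laminin and 21 integrin genes and ITGB3BP, a centromere protein gene that matched by its name and encodes no integrin subunit. In all, 84 symbols had one of these forms at any mean. The highest means just inside the limit were 10.6 for ITGA10, 12.4 for LAMB4 and 15.1 for ITGB4, and those just outside it were 9.73 for ITGB6, 9.43 for COL20A1 and 8.83 for LAMA2 per the authors' deposited tables.

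The cells were 4 established human neuroblastoma lines, tumour cells of the sympathetic nervous lineage. LAN5 and IMR5 are labelled MYCN amplified and sensitive, SK-N-FI MYCN wildtype and sensitive, and SK-N-BE(2) MYCN amplified and resistant to GSK-J4. GSK-J4 is a cell-permeable inhibitor of the KDM6 demethylases, which take methyl groups off lysine 27 of histone H3. Each line was either left without the compound or kept in 1 µM of it for 72 h, with 3 libraries of polyadenylated RNA in each of the 8 groups and 24 libraries in all. Each line stands for 1 cell culture model, and the labels do not say whether the 3 libraries of a group came from separate cultures, so p-values measure the spread between libraries, which may be technical.

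For each line the authors deposited 1 comparison, with the mean normalized count over its 6 libraries, the log2 fold change with its standard error, and the adjusted p-value for each gene. A gene is said to have risen or fallen where that adjusted p was under 0.05. No value of a single library was used, so whether single libraries of the groups overlap was not tested. Where a level without and with GSK-J4 is given below, it is an implied mean, computed from the mean and the fold change of the table after the shrinkage of the fold change had been undone. The tables do not state the direction of the comparison. It was read as GSK-J4 over untreated from a list of 5 genes, BBC3, MT2A, SLC30A1, DDIT3 and HMOX1. The first 4 were higher in the 3 sensitive lines, while HMOX1 was higher in LAN5 and SK-N-FI and lower in IMR5, with -0.93 ± 0.199 per the authors' deposited table. MT2A and SLC30A1 were also higher in SK-N-BE(2), where the other 3 were not called. The SK-N-FI table was matched to its line by a similar short name and by elimination. SK-N-BE(2) values were shrunken most, with no standard error above 0.0828 per the authors' deposited table, so the sizes of its deposited changes are not comparable with those of LAN5, IMR5 and SK-N-FI.

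A laminin molecule joins an alpha, a beta and a gamma chain and, with collagen IV, forms the sheet of the basement membrane. Fibrillar collagens such as types I, III and V make the tensile fibres of loose tissue, and collagen VI makes beaded filaments near the cell surface. An integrin pairs an alpha with a beta subunit; ITGB1 is the common beta partner of the collagen, laminin and fibronectin receptors. In the sympathetic lineage, migrating neural crest cells use such receptors on matrix, and neuroblastoma tumours hold a matrix made by tumour and stromal cells.

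Promoter sequence is shown for 5 members whose results are described below. ITGA2 and COL13A1 rose in every sensitive line, ITGA1 is the neighbour of ITGA2 with another response, ITGA11 had the largest rise with a mean above 100, and COL6A6 had the largest fall. The windows run from 250 to 51 bases before the RefSeq start (GRCh38.p14), 5′ to 3′ on the strand of the gene. They are chr5:52989102-52989301 (plus strand) for ITGA2, chr5:52787666-52787865 (plus) for ITGA1, chr10:69801656-69801855 (plus) for COL13A1, chr15:68432214-68432413 (minus) for ITGA11 and chr3:130516927-130517126 (plus) for COL6A6. None of them overlaps a GENCODE 29 exon by a base. The gene coordinates given with the members are from GENCODE 29, whose start of COL6A6 lies 43.2 kb downstream of the RefSeq start used for its window; for the other 4 genes the starts differ by at most 39 bases. Capitals mark matches, on either strand, to 6 motifs, which are the TATA box TATAAA, the GC box GGGCGG, the CCAAT box, the AP-1 site TGANTCA, the hypoxia response core ACGTG and the CARE core TGATGNAA.
ITGA2: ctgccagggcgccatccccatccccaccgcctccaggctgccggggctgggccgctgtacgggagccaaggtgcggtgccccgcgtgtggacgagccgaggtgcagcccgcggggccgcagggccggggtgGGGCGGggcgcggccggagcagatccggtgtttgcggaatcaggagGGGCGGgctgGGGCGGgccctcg
ITGA1: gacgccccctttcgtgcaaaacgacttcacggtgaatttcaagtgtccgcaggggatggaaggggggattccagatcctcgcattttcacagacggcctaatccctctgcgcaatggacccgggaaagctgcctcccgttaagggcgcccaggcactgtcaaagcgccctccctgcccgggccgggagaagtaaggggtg
COL13A1: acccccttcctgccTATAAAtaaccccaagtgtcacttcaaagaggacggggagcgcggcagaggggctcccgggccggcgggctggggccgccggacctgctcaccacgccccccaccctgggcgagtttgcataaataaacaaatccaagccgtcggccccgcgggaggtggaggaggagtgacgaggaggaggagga
ITGA11: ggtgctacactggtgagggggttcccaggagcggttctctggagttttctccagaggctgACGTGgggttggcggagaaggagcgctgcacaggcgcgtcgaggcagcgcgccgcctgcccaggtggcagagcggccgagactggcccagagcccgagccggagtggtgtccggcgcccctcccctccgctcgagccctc
COL6A6: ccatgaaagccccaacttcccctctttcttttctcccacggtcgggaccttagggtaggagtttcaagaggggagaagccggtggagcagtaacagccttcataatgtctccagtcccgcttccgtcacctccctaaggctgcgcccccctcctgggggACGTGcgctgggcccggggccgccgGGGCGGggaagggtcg

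ITGA2 held 3 GC boxes, COL13A1 held 1 TATA box, ITGA11 held 1 ACGTG and COL6A6 held 1 ACGTG and 1 GC box, while none of the 6 motifs was in the ITGA1 window. A GC box stood in 34.9% of the 34943 RefSeq promoter windows of this length, a CCAAT box in 27.4%, the hypoxia response core in 14.4%, a TATA box in 7.66%, an AP-1 site in 5.28% and a CARE core in 2.50%. The G+C content was 78.5% for ITGA2, 71% for ITGA11, 65.5% for COL13A1, 64.5% for COL6A6 and 61% for ITGA1, beside a median of 57.5% over all windows. Of the 67 members, 48 had a RefSeq window. These matches describe the letters of the windows and show no binding.

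In LAN5, 29 members rose and 14 fell of 63 with an adjusted p, where 22.5% of all tested genes rose, 19.2% fell and 41.7% did either. In IMR5, 27 rose and 8 fell of 58, where 22.6% of genes rose, 21.6% fell and 44.1% did either. SK-N-FI had 9 members higher and 9 lower of 53, beside 16.8% and 14.8% of genes, 31.6% in either direction. SK-N-BE(2) had 2 higher and 2 lower of 42, beside 1.62% and 0.858%, 2.48% in either direction. The median log2 fold change of the tested members was 0.55 in LAN5 cells, 0.63 in IMR5 cells, 0.06 in SK-N-FI cells and 0.03 in SK-N-BE(2) cells, and that of all tested genes was 0.09, 0.02, 0.01 and -0.00017 per the authors' deposited tables. The share that rose in SK-N-FI was close to that of all genes. Members had to pass a limit on the mean over treated and untreated libraries, and all tested genes did not. A gene could pass it through its level in the treated libraries alone, and thus be a member because it rose. How far this limit alters the comparisons with all tested genes, here and for shared calls, was not tested.

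Many members had a low mean, and the picture differed for those with a higher one. With a mean of at least 100, 9 of 25 members rose and 9 fell in LAN5, beside 28.2% and 38.9% of genes of that strength and 67% in either direction. In IMR5 17 of 30 rose and 8 fell, beside 34% and 35.7%, and 69.6% in either direction. In SK-N-FI 2 of 22 rose and 8 fell, beside 25% and 24.1%, and 49.1% in either direction. Most of the members that rose there thus had a mean under 100. In SK-N-BE(2) 2 of 31 rose and 2 fell, beside 1.86% and 1.02%, and 2.87% in either direction. This mean covers treated and untreated libraries, so a gene could reach 100 by rising. In LAN5 the implied untreated means of ITGA11, COL16A1, ITGA2, LAMB2 and COL6A3, which rose, were 8.34, 29, 32.6, 63.7 and 84.6. Those of COL6A2, COL7A1, LAMC1 and ITGB1, which also rose, were above 100. The same limit was set on all genes, and how far it alters these shares was not tested.

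**Figure D1:**
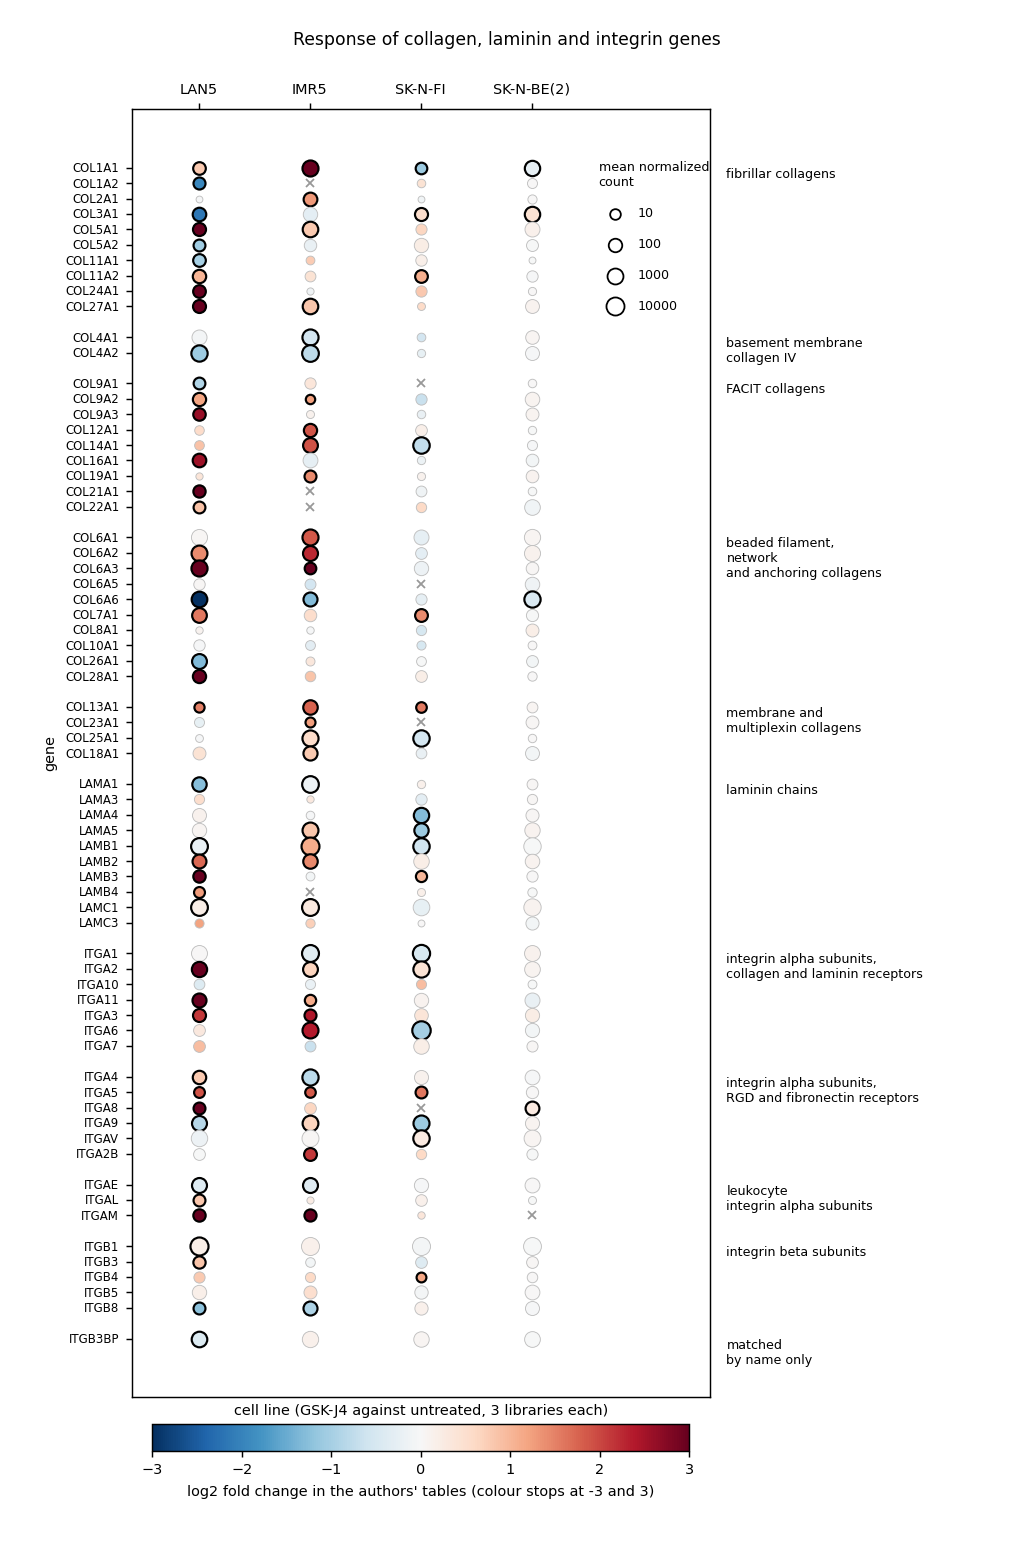
Deposited log2 fold change (colour) of each of the 67 members (rows) in each cell line (columns); the area of a circle grows with the mean normalized count, a black ring marks an adjusted p under 0.05 and a cross a gene not listed for that line. Dark red circles are common among collagens and integrin alpha subunits in LAN5 and IMR5, and 4 rings stand in SK-N-BE(2). In SK-N-FI cells, ringed blue circles stand at COL1A1, COL14A1, COL25A1, LAMA4, LAMA5, LAMB1, ITGA1, ITGA6 and ITGA9.

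**Figure D2:**
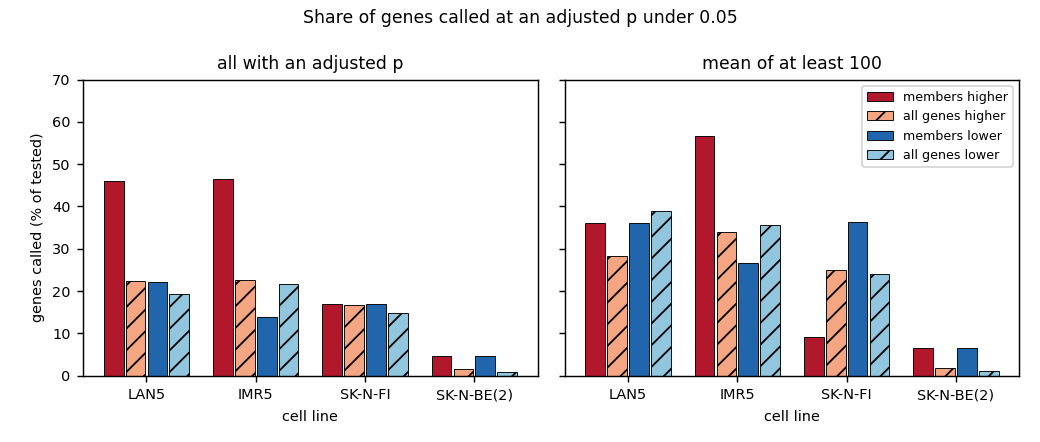
Percent of tested members (plain bars) and of all tested genes (hatched bars) that rose (red) or fell (blue) at an adjusted p under 0.05, for each cell line, over all genes with an adjusted p (left) and over those with a mean of at least 100 (right). The bars of members that rose stand highest in LAN5 and IMR5 on the left, where 29 of 63 and 27 of 58 rose.

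Levels between genes were compared within a line on the mean scaled to the table's summed means as CPM and divided by exon length in kb. ITGB1 led the members in LAN5 with 107, in IMR5 with 84.1 and in SK-N-BE(2) with 84.6, and LAMB1 came next in each of these lines with 19.9, 54.3 and 37.2. In SK-N-FI the laminin receptor subunit ITGA6 led with 149, ahead of ITGB1 with 101 and LAMC1 with 15.3. The common subunit ITGB1 (ENSG00000150093, chromosome 10, 32900319 to 33005792 on GRCh38) thus stood first or in the next place in all 4 lines. Across lines, whose tables were normalized separately, ITGB1 was between 506 and 641 CPM, while ITGA6 spanned 1.56 to 974, LAMA1 0.104 to 112 and COL4A2 0.0987 to 114 CPM.

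All 9 fibrillar collagens tested in LAN5 were called, 5 higher and 4 lower, beside 41.7% of all genes tested. In IMR5 4 of 8 rose and none fell, a share called near the 44.1% of all genes. SK-N-FI had 2 higher and 1 lower of 8, beside 31.6%, and SK-N-BE(2) 1 higher and 1 lower of 5, beside 2.48%.

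COL1A1, the alpha 1 chain of collagen I (ENSG00000108821, chromosome 17, 50183289 to 50201632 on GRCh38), was called in every line, in both directions. Its implied mean went from 175 to 2033 with GSK-J4 in IMR5 cells and from 33.7 to 60.6 in LAN5 cells, and from 29.8 to 11.4 in SK-N-FI cells and from 619.5 to 484 in SK-N-BE(2) cells. The authors' deposited tables gave a log2 fold change of 3.22 ± 0.279 in IMR5 cells (adjusted p = 2.2e-29), 0.79 ± 0.274 in LAN5 cells (0.0115), -1.10 ± 0.345 in SK-N-FI cells (0.00666) and -0.27 ± 0.07 in SK-N-BE(2) cells (0.00752). It rose in both MYCN-amplified sensitive lines and fell in the other two. COL1A2, the other chain of collagen I, fell in LAN5, with a log2 fold change of -1.96 ± 0.372 at a mean of 28.8 per the authors' deposited table, so the chains of 1 molecule went opposite ways there. It is not listed for IMR5, and its means in SK-N-FI and SK-N-BE(2) were 2.01 and 6.18 per the authors' deposited tables.

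COL3A1, the chain of collagen III (ENSG00000168542, chromosome 2, 188974320 to 189012746 on GRCh38), was also called in both directions. Its implied mean went from 171 to 35.5 in LAN5 cells, from 245 to 200.2 in IMR5 cells, from 54.2 to 80.2 in SK-N-FI cells and from 465 to 713 in SK-N-BE(2) cells. The authors' deposited tables gave -2.17 ± 0.218 in LAN5 cells (adjusted p = 4.02e-22), -0.28 ± 0.156 in IMR5 cells (0.135), 0.53 ± 0.215 in SK-N-FI cells (0.045) and 0.46 ± 0.0722 in SK-N-BE(2) cells (7.61e-08). It fell in LAN5 and rose in SK-N-FI and SK-N-BE(2), and the rise in SK-N-FI had an adjusted p of 0.0652 when every deposited p of that table was counted.

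The fibril-forming collagen genes COL5A1 and COL27A1, named after their values were seen, rose in both MYCN-amplified sensitive lines. COL5A1 had log2 fold changes of 3.45 ± 0.305 in LAN5 and 0.78 ± 0.112 in IMR5, and COL27A1 of 3.86 ± 0.334 and 0.84 ± 0.0937, per the authors' deposited tables. For COL5A1 the implied mean was 9.07 without and 125 with GSK-J4 in LAN5, and 501 and 870.2 in IMR5. COL5A2, the partner chain, fell in LAN5 with -1.07 ± 0.344 and had the highest mean of the fibrillar group in SK-N-FI, 219.6, with a change of 0.22 ± 0.163 (adjusted p = 0.332), per the authors' deposited tables. COL2A1, the collagen of cartilage, rose in IMR5, by 1.31 ± 0.22 at a mean of 122 per the authors' deposited table.

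Collagen IV, the network of the basement membrane, had 1 of 2 chains lower in LAN5 and both lower in IMR5. Of all tested genes, 19.2% fell in LAN5 and 21.6% in IMR5. COL4A2 (ENSG00000134871, chromosome 13, 110305812 to 110513209 on GRCh38) went from an implied mean of 1971 to 916 in LAN5 and from 2809 to 1629.8 in IMR5. Its log2 fold changes were -1.10 ± 0.0728 (adjusted p = 7.18e-50) and -0.78 ± 0.074 (1.06e-24) per the authors' deposited tables. COL4A1 fell in IMR5, with -0.55 ± 0.0896, and had -0.06 ± 0.106 in LAN5 (adjusted p = 0.72) per the authors' deposited tables. In SK-N-FI the means of COL4A1 and COL4A2 were 2.21 and 1.59, and in SK-N-BE(2) the changes were 0.05 ± 0.0818 and -0.04 ± 0.0827, neither called, per the authors' deposited tables. The other collagen IV chains, COL4A3 to COL4A6, were below the limit of the rule, the highest table mean being 8.37 for COL4A3.

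The FACIT collagens, which attach to the surface of fibrils, had 5 members higher and 1 lower of 8 in LAN5 cells, 4 higher of 6 in IMR5 cells, 1 lower of 5 in SK-N-FI cells and none called of 5 in SK-N-BE(2) cells. The shares called were 75%, 66.7%, 20% and 0%, beside 41.7%, 44.1%, 31.6% and 2.48% of all tested genes. COL16A1 had an implied mean of 29 without and 186 with GSK-J4 in LAN5 and of 373 and 309 in IMR5. It rose in LAN5, by 2.57 ± 0.215, with -0.27 ± 0.121 in IMR5 (adjusted p = 0.0602), per the authors' deposited tables. COL14A1, which decorates collagen I fibrils, went from 135 to 519 in IMR5 and from 2187 to 1278 in SK-N-FI, as implied means. It rose by 1.91 ± 0.13 in IMR5 and fell in SK-N-FI, with -0.74 ± 0.173 (adjusted p = 0.000135), per the authors' deposited tables. COL22A1 had the highest mean of the group in SK-N-BE(2), 761, with a change of -0.11 ± 0.0663 (adjusted p = 0.661) per the authors' deposited table.

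Beaded filament, network and anchoring collagens had 4 members higher and 2 lower of 9 in LAN5, 3 higher and 1 lower of 9 with IMR5, 1 higher of 9 with SK-N-FI and 1 lower of 7 with SK-N-BE(2). In the same order, 66.7%, 44.4%, 11.1% and 14.3% were called, beside 41.7%, 44.1%, 31.6% and 2.48% of all tested genes. The IMR5 share was thus near that of all genes. Among collagens with a mean of at least 100, the largest rise was that of COL6A3 in LAN5. With the shrinkage undone, the weaker COL21A1 and COL24A1, named after their values were seen, had higher ratios there, of 31.9 and 27.9 at means of 34.9 and 49.6 per the authors' deposited table. COL6A3 (ENSG00000163359, chromosome 2, 237324003 to 237414375 on GRCh38) went from an implied mean of 84.6 to 2289 in LAN5, a ratio of 27.1, and from 1.96 to 40 in IMR5. Its implied means without and with GSK-J4 were 223 and 198 in SK-N-FI and 43 and 47.4 in SK-N-BE(2). The log2 fold change was 4.69 ± 0.124 in LAN5 cells, with an adjusted p listed as 0, and 3.17 ± 0.436 in IMR5 cells (3.03e-12), -0.15 ± 0.238 in SK-N-FI cells (0.686) and 0.04 ± 0.0722 in SK-N-BE(2) cells (0.946) per the authors' deposited tables. Treated LAN5 held the highest implied COL6A3 level of the 8 groups, from separately normalized tables.

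COL6A1 and COL6A2, neighbours on chromosome 21, encode the other classic chains of collagen VI. COL6A2 rose in LAN5 and IMR5, by 1.41 ± 0.0856 and 2.27 ± 0.122, per the authors' deposited tables. COL6A1 rose in IMR5, by 1.87 ± 0.0812, and had 0.04 ± 0.079 in LAN5 cells (adjusted p = 0.748), -0.26 ± 0.143 in SK-N-FI cells (0.161) and 0.07 ± 0.0553 in SK-N-BE(2) cells (0.798) per the authors' deposited tables. In LAN5 the implied mean of COL6A1 was 1168 without and 1201 with the compound, while that of COL6A2 went from 511 to 1369.

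COL6A6 (ENSG00000206384, chromosome 3, 130560334 to 130678155 on GRCh38), which encodes an alternative chain of collagen VI, went the other way. Its implied mean went from 1365 to 138 in LAN5 cells, from 224 to 88.3 in IMR5 cells, from 17 to 13 in SK-N-FI cells and from 1654 to 1139.9 in SK-N-BE(2) cells. The authors' deposited tables gave -3.28 ± 0.103 in LAN5 cells (adjusted p = 9.22e-219), -1.30 ± 0.167 in IMR5 cells (6.85e-14), -0.28 ± 0.377 in SK-N-FI cells (0.633) and -0.46 ± 0.0572 in SK-N-BE(2) cells (7.75e-13). It fell in the 3 MYCN-amplified lines, including the resistant one, and was weak in SK-N-FI. COL7A1, which forms the fibrils that anchor skin to its basement membrane, rose in LAN5 by 1.59 ± 0.129 and in SK-N-FI by 1.41 ± 0.26 per the authors' deposited tables. COL26A1 fell in LAN5, with -1.33 ± 0.121 at a mean of 350.0 per the authors' deposited table.

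Among membrane-spanning and multiplexin collagens, all 4 rose in IMR5, 1 of 3 rose in LAN5, 1 rose and 1 fell of 3 in SK-N-FI cells, and neither of 2 was called in SK-N-BE(2). Of all tested genes, 44.1%, 41.7%, 31.6% and 2.48% were called in these lines, in the same order. COL13A1 (ENSG00000197467, chromosome 10, 69801867 to 69964275 on GRCh38), a transmembrane collagen of cell junctions, rose in each sensitive line. Its implied means without and with GSK-J4 were 2.34 and 11.8 in LAN5 cells, 108 and 381 in IMR5 cells and 3.13 and 16.5 in SK-N-FI cells. It was thus weak in LAN5 and SK-N-FI. The log2 fold changes were 1.52 ± 0.515 (adjusted p = 0.00919), 1.78 ± 0.146 (7.24e-33) and 1.55 ± 0.409 (0.0009), in the same order, per the authors' deposited tables. COL25A1, a transmembrane collagen of neurons, rose by 0.55 ± 0.0832 in IMR5 and fell in SK-N-FI, with -0.54 ± 0.182 (adjusted p = 0.0126), at means of 1164 and 1589 per the authors' deposited tables. COL18A1, whose exons share 16.4% of their bases with the antisense neighbour SLC19A1, had 0.80 ± 0.182 in IMR5, which was called, per the authors' deposited table, and whether the counting used strand is not given in the sources used here.

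**Figure D3:**
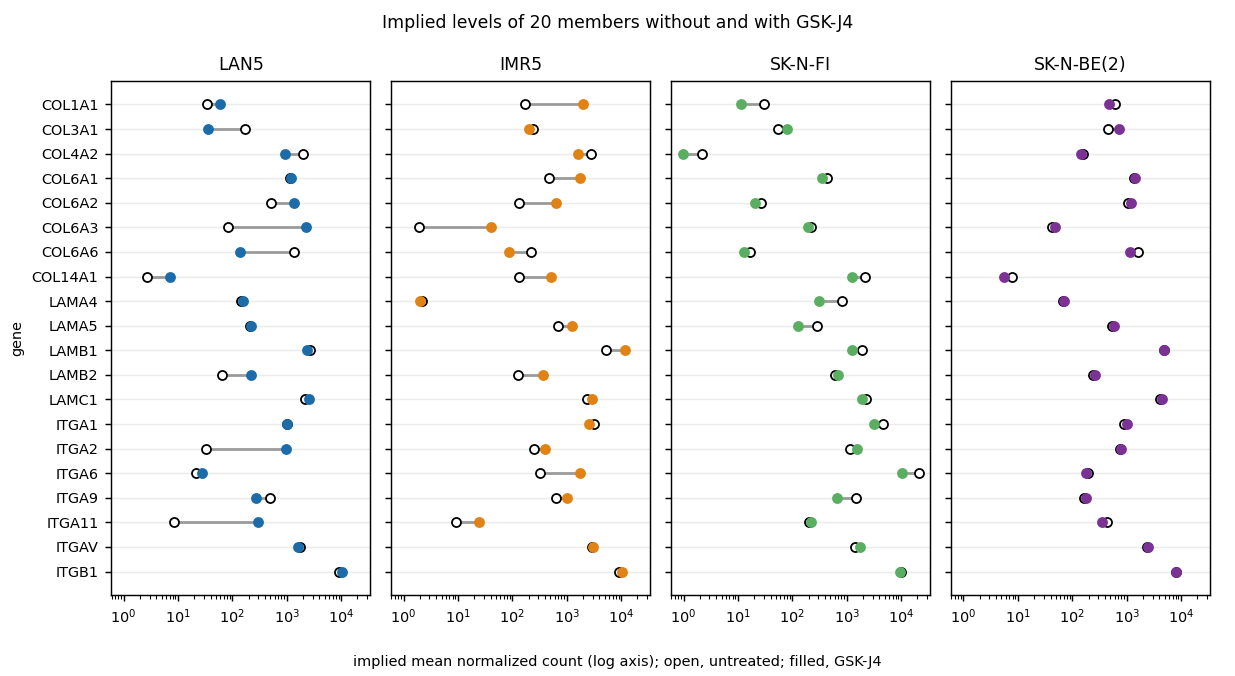
Implied mean normalized count (log axis) of 20 members (rows) in each line (panels), without GSK-J4 (open circles) and with it (filled circles), computed from the deposited mean and the fold change with its shrinkage undone; there are no error bars because no library values were used. Long bars stand at COL6A3, ITGA2 and ITGA11 in LAN5 cells and at COL1A1 and COL6A3 in IMR5 cells, and in SK-N-BE(2) the circles nearly coincide.

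Of the laminin chains, 4 rose and 2 fell of 10 tested in LAN5 and 4 rose and 1 fell of 8 in IMR5 cells, whereas SK-N-FI had 1 higher and 3 lower of 7. The shares called were 60%, 62.5% and 57.1%, beside 41.7%, 44.1% and 31.6% of all tested genes. None of the 6 tested in SK-N-BE(2) was called, beside 2.48% of genes.

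LAMB1 (ENSG00000091136, chromosome 7, 107923799 to 108003255 on GRCh38), the beta 1 chain of many laminins, was the strongest laminin gene per length except in SK-N-FI. Its implied mean went from 5409 to 11785 in IMR5 cells, from 2679 to 2319 in LAN5 cells and from 1939.8 to 1268 in SK-N-FI cells, and its mean in SK-N-BE(2) was 4861 per the authors' deposited table. It rose by 1.12 ± 0.0823 in IMR5 cells (adjusted p = 3.37e-40) and fell in SK-N-FI, with -0.60 ± 0.12 (6e-06), and in LAN5, with -0.21 ± 0.0641 (0.00391), per the authors' deposited tables. The small fall in LAN5 was lost when that line was centred on the median of genes with a mean of at least 100 (adjusted p = 0.125). LAMC1, the gamma 1 chain that completes most laminins, rose in LAN5 and IMR5, by 0.20 ± 0.0697 and 0.29 ± 0.0647, with -0.25 ± 0.151 in SK-N-FI (adjusted p = 0.222), per the authors' deposited tables.

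LAMB2, the beta 2 chain of the synapse and kidney filter, rose in both MYCN-amplified sensitive lines. Its implied mean went from 63.7 to 219 in LAN5 cells and from 129 to 362 in IMR5 cells, beside 609 and 708 in SK-N-FI cells and 239 and 267 in SK-N-BE(2) cells. The changes were 1.73 ± 0.174 (adjusted p = 2.96e-22), 1.45 ± 0.146 (3.53e-22), 0.21 ± 0.167 (0.375) and 0.10 ± 0.0786 (0.77), in the same order, per the authors' deposited tables.

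LAMA4, an alpha chain common in vessel walls, went from an implied mean of 813 to 314 in SK-N-FI. It fell there, with -1.30 ± 0.188 (adjusted p = 1.01e-10), and had 0.13 ± 0.168 in LAN5 (0.613) and 0.03 ± 0.0785 in SK-N-BE(2) (0.95), per the authors' deposited tables. LAMA5, an alpha chain of epithelial basement membranes, went from 685 to 1233 in IMR5 and from 284 to 128 in SK-N-FI, as implied means. Its log2 fold changes were 0.84 ± 0.113 (adjusted p = 1.03e-12) in IMR5 cells, -1.09 ± 0.186 (6.03e-08) in SK-N-FI cells and 0.06 ± 0.148 (0.805) in LAN5 cells per the authors' deposited tables. LAMA1, the alpha chain of the early embryo, fell in LAN5 with -1.27 ± 0.143, and in IMR5, where its mean was 2180.3, had -0.15 ± 0.0674 (adjusted p = 0.0492, and 0.0658 over every deposited p) per the authors' deposited tables. An antisense gene overlaps 10.3% of the exon bases of LAMA1.

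Integrin alpha subunits of the collagen and laminin receptors had 3 members higher and none lower of 7 in LAN5 cells, 4 higher and 1 lower in IMR5, and 1 higher and 2 lower in SK-N-FI. None of the 5 tested in SK-N-BE(2) was called, beside 2.48% of genes. The share called in LAN5, 42.9%, was near the 41.7% of all tested genes. It was 71.4% in IMR5 and 42.9% in SK-N-FI, beside 44.1% and 31.6%.

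ITGA2 (ENSG00000164171, chromosome 5, 52989326 to 53094779 on GRCh38), whose product binds collagen together with ITGB1, went from an implied mean of 32.6 to 981 in LAN5, a ratio of 30.1. In IMR5 ITGA2 went from 256 to 408, in SK-N-FI from 1146 to 1575 and in SK-N-BE(2) from 745 to 804. The log2 fold changes were 4.79 ± 0.168 (adjusted p = 5.09e-176) in LAN5 cells, 0.66 ± 0.144 (1.92e-05) in IMR5 cells, 0.44 ± 0.175 (0.0397) in SK-N-FI cells and 0.09 ± 0.0643 (0.749) in SK-N-BE(2) cells per the authors' deposited tables. LAN5 had the lowest untreated level of the 4 lines and its treated level lay among those of the others. The call in SK-N-FI was lost, at an adjusted p of 0.0575, when every deposited p was counted.

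ITGA1 (ENSG00000213949, chromosome 5, 52787896 to 52959210 on GRCh38), a collagen receptor subunit whose gene ends 30.1 kb before ITGA2 on the same strand, had 0.01 ± 0.0891 in LAN5 cells (adjusted p = 0.967), -0.33 ± 0.0655 in IMR5 cells (1.8e-06), -0.49 ± 0.16 in SK-N-FI cells (0.00975) and 0.13 ± 0.0578 in SK-N-BE(2) cells (0.349) per the authors' deposited tables. It thus fell in IMR5 and SK-N-FI, where ITGA2 rose. The implied means of ITGA1 were 1009 and 1014 in LAN5 cells, 3188 and 2529 in IMR5 cells and 4619 and 3252 in SK-N-FI cells.

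ITGA11, a receptor for fibrillar collagen, rose in LAN5 from an implied mean of 8.34 to 303, beside 207 and 224 in SK-N-FI cells and 437 and 351 in SK-N-BE(2) cells. Its changes were 4.81 ± 0.278 (adjusted p = 4.53e-65) in LAN5 cells, 1.11 ± 0.397 (0.0138) in IMR5 cells, 0.11 ± 0.175 (0.694) in SK-N-FI cells and -0.22 ± 0.0758 (0.0999) in SK-N-BE(2) cells per the authors' deposited tables.

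ITGA6 (ENSG00000091409, chromosome 2, 172427354 to 172506282 on GRCh38) is the alpha subunit of laminin receptors. Its implied mean was 21042 without and 10293 with GSK-J4 in SK-N-FI cells, 326 and 1742 in IMR5 cells, 21.1 and 27.2 in LAN5 cells and 197 and 178 in SK-N-BE(2) cells. It fell in SK-N-FI, with -1.02 ± 0.101 (adjusted p = 9.87e-22), and rose in IMR5, by 2.38 ± 0.114 (3.36e-95), with 0.33 ± 0.34 in LAN5 cells (0.495), per the authors' deposited tables. SK-N-FI was the highest of the lines with and without the compound. ITGA3, another laminin receptor subunit, named after its values were seen, rose in LAN5 and IMR5, by 2.12 ± 0.277 and 2.43 ± 0.371 per the authors' deposited tables.

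Alpha subunits of the fibronectin and RGD receptors had 3 higher and 1 lower of 6 in LAN5 cells, the same counts in IMR5, 2 higher and 1 lower of 5 in SK-N-FI cells and 1 higher of 5 in SK-N-BE(2) cells. Beside these stood 41.7%, 44.1%, 31.6% and 2.48% of all tested genes called, in the same order. ITGA5, which with ITGB1 forms the fibronectin receptor, rose in each sensitive line from a low level. Its implied means were 3.15 and 19.6 in LAN5 cells, 2.34 and 16.7 in IMR5 cells, 10.5 and 40.6 in SK-N-FI cells and 35.4 and 37.2 in SK-N-BE(2) cells. The changes were 1.92 ± 0.479 (adjusted p = 0.000235), 1.83 ± 0.469 (0.000323), 1.57 ± 0.339 (3.01e-05) and 0.02 ± 0.0687 (0.974), in the same order, per the authors' deposited tables.

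ITGA9, a receptor subunit for tenascin C and other ligands, rose in IMR5 by 0.67 ± 0.0963 and fell in LAN5, with -0.85 ± 0.109, and SK-N-FI, with -1.09 ± 0.184, per the authors' deposited tables. ITGA4, a receptor subunit for fibronectin and VCAM1, rose in LAN5 by 0.78 ± 0.205 and fell in IMR5, with -0.81 ± 0.0735, per the authors' deposited tables. ITGA8 rose in LAN5 by 4.17 ± 0.472 at a mean of 26.3, and in SK-N-BE(2) by 0.27 ± 0.0828 (adjusted p = 0.0481), per the authors' deposited tables. The SK-N-BE(2) call of ITGA8 had an adjusted p of 0.104 over every deposited p. ITGAV, the vitronectin receptor subunit, had the highest mean of this group in all 4 lines. It was called in SK-N-FI alone, with 0.26 ± 0.108 (adjusted p = 0.0471, and 0.0684 over every deposited p) per the authors' deposited table.

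Of 5 integrin beta subunits, 2 rose and 1 fell in LAN5, 1 fell in IMR5 and 1 rose in SK-N-FI, and none of 3 tested was called in SK-N-BE(2). The shares called were 60%, 20%, 20% and 0%, beside 41.7%, 44.1%, 31.6% and 2.48% of all tested genes. ITGB1, the shared beta subunit, had log2 fold changes of 0.20 ± 0.0578 in LAN5 cells (adjusted p = 0.00204), 0.15 ± 0.0667 in IMR5 cells (0.0558), -0.06 ± 0.0785 in SK-N-FI cells (0.622) and -0.01 ± 0.0355 in SK-N-BE(2) cells (0.974) per the authors' deposited tables. Its means lay between 8156 and 9908, and LAN5 alone passed the threshold, although IMR5 did so when centred on the median of genes with a mean of at least 100 (adjusted p = 0.034). ITGB8, which binds latent TGF-beta with ITGAV and was named after its values were seen, fell in LAN5 and IMR5, with -1.22 ± 0.339 and -0.91 ± 0.162 per the authors' deposited tables. For ITGB3 51.6% of the exon bases are shared with a gene on the same strand, and its values are therefore uncertain.

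Among leukocyte integrin alpha subunits, ITGAE fell in LAN5 and IMR5, with -0.40 ± 0.107 and -0.37 ± 0.126 per the authors' deposited tables. ITGAM, named after its values were seen, rose in both of these lines, by 4.20 ± 0.426 and 4.25 ± 0.445 at means of 37.3 and 31.1 per the authors' deposited tables. ITGB2, the beta subunit it pairs with on leukocytes, had no table mean above 1.44, and the leukocyte marker PTPRC none above 2.27 per the authors' deposited tables.

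Shared calls were counted over the 45 members tested in all 3 sensitive lines. COL13A1, ITGA2 and ITGA5 rose in all 3, that is 6.67% of members, near the 5.01% of all genes tested in the 3 lines. No member fell in all 3, beside 5.83% of genes. There were 8 members that rose in 1 sensitive line and fell in another, 17.8% of members beside 12.6% of genes: COL1A1, COL3A1, COL14A1, LAMA5, LAMB1, ITGA4, ITGA6 and ITGA9. COL10A1, ITGA7, ITGA10 and ITGB5 were called in none of the 3, 8.89% of members beside 27.2% of genes, and 41 members were called in at least 1, 91.1% beside 72.8%.

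Line pairs were described over members with a mean of at least 50 in both lines. Pearson's r of the deposited log2 fold changes was 0.45 over 24 members for LAN5 and IMR5, 0.27 over 21 in LAN5 cells and SK-N-FI, and -0.52 over 19 in IMR5 cells and SK-N-FI. Over all genes of that strength it was 0.48, 0.38 and 0.44. The sign agreed for 17 of 24, 10 of 21 and 6 of 19 members, that is for 70.8%, 47.6% and 31.6%, beside 64.8%, 61.4% and 64.9% of all genes. These are descriptions across genes, which are not independent replicates and share the libraries of each line.

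**Figure D4:**
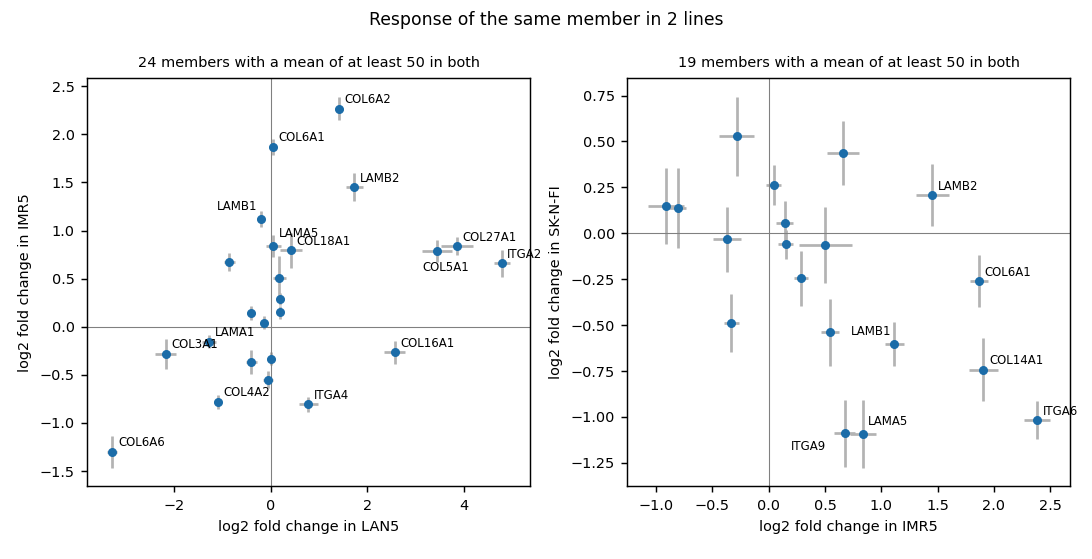
Deposited log2 fold change of each member in IMR5 against LAN5 (left) and in SK-N-FI against IMR5 (right), for members with a mean of at least 50 in both lines; bars are standard errors and the names mark larger changes. On the right, LAMB1, LAMA5, COL14A1, ITGA9 and ITGA6 lie at the lower right, higher in IMR5 and lower in SK-N-FI.

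Differences of response between lines were tested on the 12 members whose mean reached 100 in each of the 4 tables, with the shrinkage undone in each table, by a two-sided Wald test with Benjamini-Hochberg adjustment over 8969 genes. The mean response of the sensitive lines minus that of SK-N-BE(2) differed for 5 of 12, 3 higher and 2 lower, where 59.1% of genes did so, 26.4% higher and 32.7% lower. SK-N-BE(2) was the only resistant line, so resistance and the line cannot be told apart. Against SK-N-BE(2), LAN5 alone differed for 8, IMR5 alone for 9 and SK-N-FI alone for 4 of the 12, beside 60.7%, 63% and 44.2% of genes. LAMB1, for example, was not called for the mean and had responses of -0.21 in LAN5 cells, 1.12 in IMR5 cells and -0.61 in SK-N-FI cells with the shrinkage undone. The mean difference was 1.91 ± 0.125 for ITGA2 (adjusted p = 1.4e-50), 1.00 ± 0.154 for LAMB2 (4.87e-10) and 0.47 ± 0.0886 for COL6A1 (4.4e-07), and -0.57 ± 0.171 for ITGA9 (0.00191) and -0.43 ± 0.0947 for ITGA1 (2.11e-05). The ITGA2 difference was set by LAN5, since it was 4.80 with LAN5 alone, 0.56 with IMR5 alone and 0.35 with SK-N-FI alone (adjusted p = 0.142). The LAMB2 and ITGA1 differences each missed the threshold with 1 line alone, LAMB2 with SK-N-FI at 0.0593 (adjusted p = 0.843) and ITGA1 with LAN5 at -0.14 (adjusted p = 0.26). For COL6A1 the values with the shrinkage undone were 0.04 in LAN5 cells, 1.88 in IMR5 cells, -0.27 in SK-N-FI cells and 0.08 in SK-N-BE(2) cells, so IMR5 set the difference, which turned to -0.0386 with LAN5 alone and -0.35 with SK-N-FI alone, neither called. For ITGA9 they were -0.86, 0.68, -1.15 and 0.13 in the same order, and with IMR5 alone the difference turned to 0.55 (adjusted p = 0.00443). For LAMC1 the difference was -0.03, with a 95% interval from -0.18 to 0.12, and for ITGAV -0.01, from -0.16 to 0.13.

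SK-N-FI minus the mean of LAN5 and IMR5 differed for 9 of the 12 members, 8 lower and 1 higher, where 47.3% of genes did so, 18.9% lower and 28.4% higher. The largest was ITGA2 with -2.33 ± 0.215 (adjusted p = 1.96e-25), where LAN5 was far above IMR5, followed by LAMA5 with -1.60 ± 0.217 (3.59e-12), LAMB2 with -1.42 ± 0.209 (2.09e-10), COL6A1 with -1.23 ± 0.157 (1.62e-13), LAMB1 with -1.07 ± 0.134 (3.09e-14) and ITGA9 with -1.05 ± 0.207 (2.62e-06). LAMC1 had -0.50 ± 0.163 (adjusted p = 0.00655) and ITGB1 -0.23 ± 0.0907 (0.0234), while ITGAV was higher by 0.32 ± 0.121 (0.0223). All 4 laminin chains among the 12, LAMA5, LAMB1, LAMB2 and LAMC1, had a lower response in SK-N-FI than the mean of LAN5 and IMR5. With the shrinkage undone, COL6A1 had 0.04 for LAN5 and 1.88 for IMR5, beside -0.27 for SK-N-FI. In the same order, ITGA9 had -0.86, 0.68 and -1.15, and LAMB1 had -0.21, 1.12 and -0.61. For COL6A1, ITGA9 and LAMB1, LAN5 lay nearer to SK-N-FI than to IMR5. LAMB2 had 1.78 for LAN5 and 1.49 for IMR5, beside 0.22 for SK-N-FI. SK-N-FI was not tested against LAN5 alone or IMR5 alone. With 1 MYCN wildtype line, MYCN status and the line cannot be told apart.

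LAN5 minus IMR5 differed for 7 of the 12 members, 2 higher and 5 lower, where 61% of genes did so, 27.3% higher and 33.6% lower. ITGA2 was higher by 4.24 ± 0.226 (adjusted p = 9.1e-76) and ITGA1 by 0.34 ± 0.111 (0.00463), and COL6A1 had -1.84 ± 0.114 (1.06e-56), ITGA9 -1.54 ± 0.147 (1.73e-24), LAMB1 -1.33 ± 0.105 (3.61e-35), LAMA5 -0.79 ± 0.189 (9.6e-05) and ITGB3BP -0.56 ± 0.115 (5.03e-06). With the mean of at least 100 asked of these 2 lines alone, 19 members were tested, 4 higher and 10 lower, beside 61% of genes called. These added COL16A1, higher by 2.95 ± 0.256, and COL4A1, higher by 0.50 ± 0.14, and COL3A1 at -1.98 ± 0.279, COL6A6 at -1.97 ± 0.201, LAMA1 at -1.14 ± 0.161, COL6A2 at -0.88 ± 0.151 and COL4A2 at -0.32 ± 0.104.

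Neighbouring members were compared because several collagen genes lie in pairs. There were 8 pairs within 100 kb of each other and 1 of them, COL4A1 and COL4A2, is head to head, with 126 bases between the RefSeq starts. In LAN5 COL4A2 fell and COL4A1 was not called, while in IMR5 both fell. COL3A1 and COL5A2, tail to tail with 19.2 kb between them, both fell in LAN5, and in SK-N-BE(2) COL3A1 rose while COL5A2 had -0.01 ± 0.0601 per the authors' deposited table. ITGA3 and COL1A1, 92.8 kb apart, both rose in LAN5 and IMR5, and in SK-N-FI COL1A1 fell while ITGA3 had 0.38 ± 0.221 (adjusted p = 0.194) per the authors' deposited table. COL6A5, 75.5 kb from COL6A6 by GENCODE 29, was called in no line where it was listed. The differences within pairs were not tested.

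**Figure D5:**
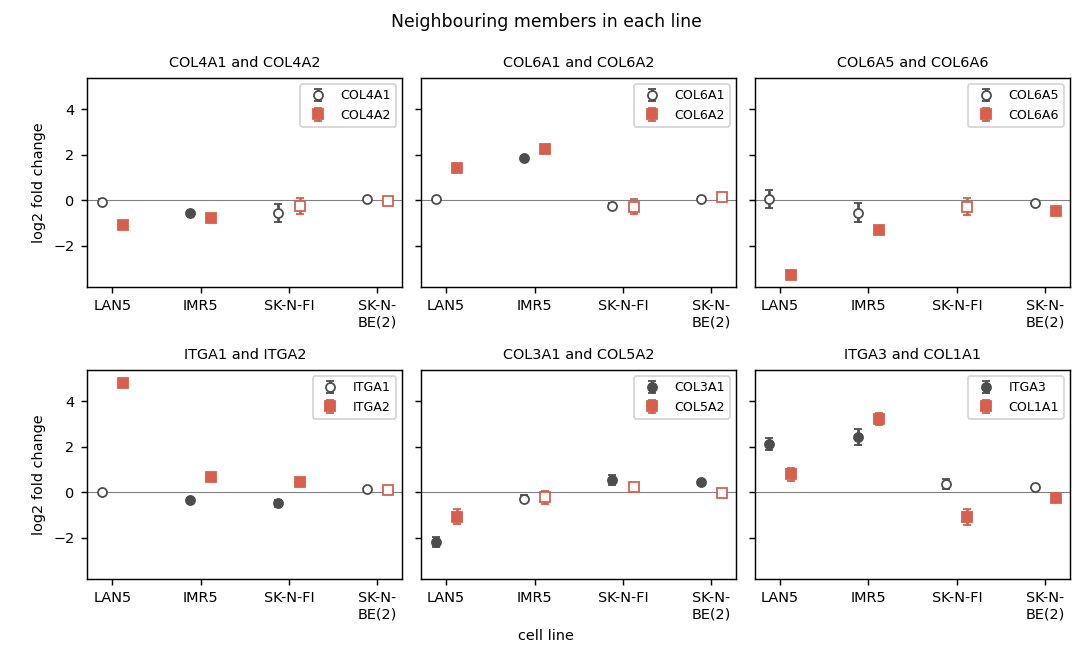
Deposited log2 fold change with its standard error for 6 pairs of neighbouring members in each line; filled symbols passed an adjusted p of 0.05 and open ones did not, and COL6A5 is not listed for SK-N-FI. ITGA2 (squares) lies above ITGA1 (circles) in LAN5, IMR5 and SK-N-FI, and COL6A6 lies below COL6A5 in LAN5 and IMR5.

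In the resistant line SK-N-BE(2), COL3A1 and ITGA8 rose and COL1A1 and COL6A6 fell, with the values given above. Of 66 members with a p-value, 11 had an unadjusted p under 0.05, that is 16.7%, beside 4.96% of all genes. None of the 4 called members had an absolute deposited log2 fold change of 1 or more.

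Other genes of the matrix were read from lists. Beside the counts of each list below, 41.7% of all tested genes were called in LAN5 and 44.1% in IMR5. In SK-N-FI 31.6% of all tested genes were called and in SK-N-BE(2) 2.48%. Collagen folding and hydroxylation enzymes had 9 of 18 higher and 2 lower in LAN5, 6 higher and 7 lower of 19 in IMR5 cells, 6 higher and 2 lower of 18 in SK-N-FI cells and 1 lower of 15 in SK-N-BE(2) cells. SERPINH1, the collagen chaperone HSP47, rose in LAN5 by 2.10 ± 0.091 and fell in IMR5, with -0.28 ± 0.0825, and SK-N-BE(2), with -0.21 ± 0.0539 (adjusted p = 0.00623), per the authors' deposited tables. P4HA2, a prolyl hydroxylase subunit, rose in all 3 sensitive lines, by 1.75 ± 0.154 in LAN5 cells, 1.24 ± 0.104 in IMR5 cells and 1.25 ± 0.0869 in SK-N-FI cells, per the authors' deposited tables. PLOD2, a lysyl hydroxylase, rose in SK-N-FI by 4.25 ± 0.253 and in LAN5 by 0.27 ± 0.099 and fell in IMR5, with -0.33 ± 0.0971, per the authors' deposited tables.

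Collagen processing and crosslinking genes had 2 higher and 6 lower of 13 in LAN5 cells, 3 higher and 4 lower of 13 in IMR5 cells, 3 higher and 1 lower of 12 in SK-N-FI cells and none called of 12 in SK-N-BE(2) cells. ADAMTS14, a procollagen protease gene, fell in LAN5, with -2.69 ± 0.21, and rose in IMR5 by 2.03 ± 0.29, per the authors' deposited tables. LOXL4, a lysyl oxidase gene, rose in IMR5 by 2.28 ± 0.155, and TLL2 had -1.95 ± 0.12 in SK-N-FI cells, both called, per the authors' deposited tables. Basement membrane partners had 4 higher and 3 lower of 9 in LAN5 cells, 4 higher and 1 lower of 6 in IMR5 cells, 1 of 8 in each direction in SK-N-FI and none called of 7 in SK-N-BE(2) cells. The laminin receptor DAG1, dystroglycan, fell in each sensitive line, with -0.38 ± 0.0917 in LAN5 cells, -0.90 ± 0.0977 in IMR5 cells and -0.64 ± 0.0941 in SK-N-FI cells, per the authors' deposited tables.

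Collagen receptors other than integrins rose in 4 of 4 cases in both LAN5 and IMR5, in 2 of 4 in SK-N-FI cells and in 1 of 4 in SK-N-BE(2) cells, and none fell. DDR2, a receptor kinase for fibrillar collagen, rose by 2.13 ± 0.0608 in LAN5 cells, 1.47 ± 0.0701 in IMR5 cells and 0.74 ± 0.148 in SK-N-FI cells, and CD44 rose by 0.16 ± 0.0462 in SK-N-BE(2) cells, per the authors' deposited tables. The integrin adhesion complex had 10 higher and 5 lower of 20 in LAN5 cells, 6 higher and 5 lower in IMR5, 4 higher and 1 lower in SK-N-FI, and none called of 17 in SK-N-BE(2) cells. ZYX, zyxin, rose by 1.51 ± 0.0769 in LAN5 cells and 1.09 ± 0.107 in IMR5 cells, and TNS3, tensin 3, had -2.04 ± 0.189 in SK-N-FI cells, per the authors' deposited tables.

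Other integrin ligands had 4 higher and 3 lower of 12 in LAN5 cells, 3 higher and 1 lower of 9 in IMR5 cells, 2 higher and 1 lower of 11 in SK-N-FI cells and none called of 7 in SK-N-BE(2) cells. TNC, tenascin C, fell in LAN5, with -1.33 ± 0.0678, and rose in IMR5 by 0.44 ± 0.0935, and NPNT, nephronectin, rose in IMR5 by 1.56 ± 0.136, per the authors' deposited tables. Matrix proteases and their inhibitors had 5 higher and 4 lower of 14 in LAN5 cells, 5 higher and 2 lower of 13 in IMR5 cells, 2 higher and 5 lower of 14 in SK-N-FI cells and 3 lower of 11 in SK-N-BE(2) cells. The 3 in SK-N-BE(2) cells were MMP2 with -0.30 ± 0.045, MMP15 with -0.31 ± 0.082 and ADAMTS9 with -0.22 ± 0.0453 per the authors' deposited table. MMP2 rose in LAN5 and IMR5, by 0.31 ± 0.0602 and 0.44 ± 0.0924, and MMP15 rose in LAN5 by 0.38 ± 0.141 and fell in SK-N-FI, with -0.52 ± 0.108, per the authors' deposited tables.

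Of 10 neuroblastoma markers, all in LAN5 and SK-N-BE(2) and 9 in IMR5 cells and SK-N-FI had a mean of at least 10, and TH is not listed for IMR5 and SK-N-FI. They fell in 9 of 10 cases in LAN5 and 5 of 9 in IMR5 cells. SK-N-FI cells had 7 of 9 lower and SK-N-BE(2) cells 7 of 10. IMR5 also had 3 of them higher and SK-N-FI had 1, while LAN5 and SK-N-BE(2) had none. The shares of all tested genes that rose or fell are given above. The summed implied mean of these markers went from 50716 to 22605 in LAN5 and from 29508 to 26921 in IMR5. For SK-N-FI the sum went from 33030 to 18438, and for SK-N-BE(2) from 47113 to 39945. The summed mean of 10 fibroblast and muscle markers was 37278 in SK-N-BE(2) and 3027 to 4854 in the other lines, with LUM alone at 19924 in SK-N-BE(2), where it rose by 0.27 ± 0.048 per the authors' deposited table. Of the 8 of them tested in each line, 3 rose and 3 fell in LAN5, 1 rose and 5 fell in IMR5, 3 rose and 2 fell in SK-N-FI and 2 rose in SK-N-BE(2). LUM fell in each sensitive line, with -1.14 ± 0.102 in LAN5 cells, -0.74 ± 0.32 in IMR5 cells and -0.40 ± 0.12 in SK-N-FI cells, while ACTA2, smooth muscle actin, rose by 2.82 ± 0.218 in LAN5 and 1.95 ± 0.213 in IMR5, per the authors' deposited tables. Schwann and glial markers summed to 53.6 to 213 and immune and endothelial markers to 52.8 to 159. The Schwann and glial sum of implied means went from 57.1 to 370 in LAN5, where 3 of 5 tested rose. The part of these markers in the members' values was not tested, and in bulk RNA fewer cells of a type and less RNA per cell cannot be told apart. The means of all genes summed to 15458900 to 19445400 per table, and the depth of single libraries is unknown.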

How the data were processed

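RNA of 24 libraries, 3 in each of 8 groups, was sequenced after polyA selection with a stranded kit, per the labels. The submitters' processing notes name FastQC, STAR, DESeq2 and hg38; versions, annotation, counting, use of strand, model and contrast direction: not given in the sources used here. Per the file headers, each deposited table holds the mean normalized count (a signal averaged over the libraries), the log2 fold change with its standard error, the Wald statistic (a score), and the p-value and its adjusted value. The authors' tables hold no count per library, so the planned count test was replaced by the authors' own DESeq2 calls at an adjusted p under 0.05.

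From the deposited values, the shrinkage of the log2 fold changes was undone by solving for the information that gives each standard error under a normal prior, whose width was 2 times the largest standard error; which of the 2 solutions held was set by whether the gene's mean lay above the mean at which standard errors peak (running median over 501 genes). Implied group means followed from the mean and that fold change. Differences between lines were tested by a two-sided Wald test over the 8969 genes whose mean reached 100 in every table, with Benjamini-Hochberg adjustment. In the SK-N-BE(2) table the deposited statistic differed from the ratio of fold change to standard error by more than 0.0001 for 19488 genes. The test of differences was checked on simulated data made with this same prior, which leaves the prior's form and width unchecked. Python 3.11.15, numpy 2.4.6, pandas 2.3.3, scipy 1.17.1 and matplotlib 3.10.9 were used.

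The members and gene lists were chosen with earlier results of these data known. Members were named with values when called in the same direction in all 3 sensitive lines, called in both directions between lines, called in SK-N-BE(2), called with a mean of at least 100 and an absolute log2 fold change of at least 1, highest in mean in their role group and line, or partner chain or head-to-head neighbour of such a member. Partner genes were the largest called change with a mean of at least 100 in each list and line, and any called in SK-N-BE(2).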

Additional observations from a re-analysis of the deposited data

Results flagged for a closer look

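The response to GSK-J4 differed between lines for the values below, each by a two-sided Wald test of the difference with Benjamini-Hochberg adjustment, on log2 fold changes with the shrinkage undone; the adjusted p-values stand in the report. The mean of the sensitive lines minus SK-N-BE(2) was 1.91 for ITGA2, 1.00 for LAMB2, 0.47 for COL6A1, -0.57 for ITGA9 and -0.43 for ITGA1. These are 5 of 12 members tested, beside 59.1% of all genes. Because SK-N-BE(2) was the only resistant line, resistance and the line cannot be told apart.

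SK-N-FI minus the mean of LAN5 and IMR5 was -2.33 for ITGA2, -1.60 for LAMA5, -1.42 for LAMB2, -1.23 for COL6A1, -1.07 for LAMB1, -1.05 for ITGA9, -0.50 for LAMC1, -0.23 for ITGB1 and 0.32 for ITGAV. LAN5 minus IMR5 was 4.24 for ITGA2, 0.34 for ITGA1, -1.84 for COL6A1, -1.54 for ITGA9, -1.33 for LAMB1, -0.79 for LAMA5 and -0.56 for ITGB3BP.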

How the results depend on the processing

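No paired analysis was possible because the files hold 1 comparison per line and no value of a single library; for the same reason leaving out each replicate, and edgeR or DESeq2 on counts, were not run. Against SK-N-BE(2), the COL6A1 difference reversed to -0.0386 with LAN5 alone and -0.35 with SK-N-FI alone, and that of ITGA9 to 0.55 with IMR5 alone; no other called result reversed under the alternatives run. In LAN5, 43 members were called, 29 higher and 14 lower; 8 were lower with a log2 change of 1 or more in size asked as well, 25 were called with a mean of at least 50 (16 higher, 9 lower) and 18 with a mean of at least 100 (9 higher, 9 lower). In IMR5, 35 were called, 27 higher and 8 lower, against 20, with 1 lower, at that size and 17 higher at a mean of at least 100. In SK-N-FI, 18 were called, 9 each way, against 10, with 5 each way, at that size. There 4 were higher at an adjusted p under 0.01, 5 higher at a mean of at least 50, and 10 were called, 2 of them higher, at a mean of at least 100. In SK-N-BE(2), 2 rose and 2 fell, against 0 called, 0 higher and 0 lower at that size, 1 higher at an adjusted p under 0.01 and 1 higher when every deposited p was counted. The sensitive lines minus SK-N-BE(2) gave 5 members, against 8 with LAN5 alone and 9 with IMR5 alone. LAN5 minus IMR5 gave 7, against 14 with the mean of at least 100 asked of those lines alone. Higher fold changes or means leave fewer members to call, and the cause of the other shifts was not tested. Among these settings within a line, the share of all genes called was computed for a mean of at least 100 only, and is given above. Whether the shifts at the other settings are particular to the members was not tested. The mean of at least 100 in the table or in the lines compared, and leaving out ITGB3BP, were chosen after seeing the data. Among named members, 5 calls within a line were lost when every deposited p was counted. At an adjusted p under 0.01, 12 calls were lost, within a line or between lines. These counts cover members named for their calls, changes or levels, not those named only as partners or after their values were seen. With each line centred, the difference for ITGAV in SK-N-FI lost its call (adjusted p = 0.0979). The depth of single libraries is unknown, and members with a mean under 26.2 have no adjusted p in SK-N-BE(2).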
